A study of Mus musculus with 4 samples.

Results

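The 10 genes described here encode markers by which fibroblasts and mesenchymal progenitors are recognised or sorted: Pdgfra, Ly6a, Ly6c1, Cd34, Thy1, Pi16, Dpp4, Clec3b, Dpt and Pdpn. They were chosen by name. All 10 were found among 25567 named genes, and all 10 were among the 11205 genes tested. The values come from stromal cells of adult C57BL/6 mice, sorted in a flow cytometer: Sca-1 had to be present, and CD24, CD49f and lineage markers absent. There were 2 libraries from the proximal prostatic ducts, the end near the urethra, and 2 from the distal ducts, the tips of the lobes. The libraries are numbered 2 and 3 in both regions, and values below follow that order. No label gives an exact age, pooling of animals or whether a number marks a shared animal, so p-values reflect the spread among these 4 libraries alone, and that spread may be technical.

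Fibroblasts of most organs carry the PDGF receptor alpha, and adult mouse fibroblasts of the adventitia and interstitium carry Sca-1, CD34 and, in a subset regarded as progenitor-like, Pi16 and Dpp4. Sca-1 is a product of Ly6a, one of a cluster of genes for small proteins held to the membrane by a glycolipid anchor. In the mouse prostate Sca-1 is also found on epithelial cells of the proximal ducts. Dermatopontin (Dpt) and tetranectin (Clec3b) are secreted proteins, so 8 of the 10 genes encode proteins of the cell surface.

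Levels are in FPKM, which divides fragments by transcript length and library size, and were added up per gene, so genes can be compared per length. Tested genes had 1 FPKM or more in at least 2 libraries. The number of genes at that level ran from 10100 in distal 3 to 11395 in proximal 2. FPKM values hold no counts, and the absolute depth is unknown. The deposited coverage per FPKM, which follows depth at equal read length, had medians from 5.22 (proximal 2) to 6.34 (distal 3). Across genes, which are not independent replicates, libraries with the same number were more alike (Pearson's r of log2(FPKM + 1) of 0.952 for both pairs) than libraries of the same region (0.911 for distal and 0.869 for proximal stroma).

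The 10 markers did not form 1 block that was high in a region. Dpp4 had about 3-fold lower values in both proximal libraries, Dpt had higher values in both proximal libraries, and Pi16 hardly differed between any of the 4. Ly6a and Ly6c1 had slightly lower and Cd34 slightly higher proximal values. Pdpn, Pdgfra, Thy1 and Clec3b overlapped between the regions. None of the 10 passed the test (0 higher in proximal and 0 higher in distal stroma, limma on log2(FPKM + 1) with region as its only term, adjusted p = 0.99991 for each). Over all genes the share called was 0.00% in each direction, with 253 genes higher in proximal and 101 higher in distal stroma at an unadjusted p under 0.05. With the library number as a block, 2 markers passed, Dpt among 2.71% of genes called higher in proximal and Dpp4 among 1.31% called higher in distal stroma, but no label says that the numbers pair the libraries. An exact permutation test of 2 libraries against 2 can give no two-sided p under 0.333.

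**Figure D1:**
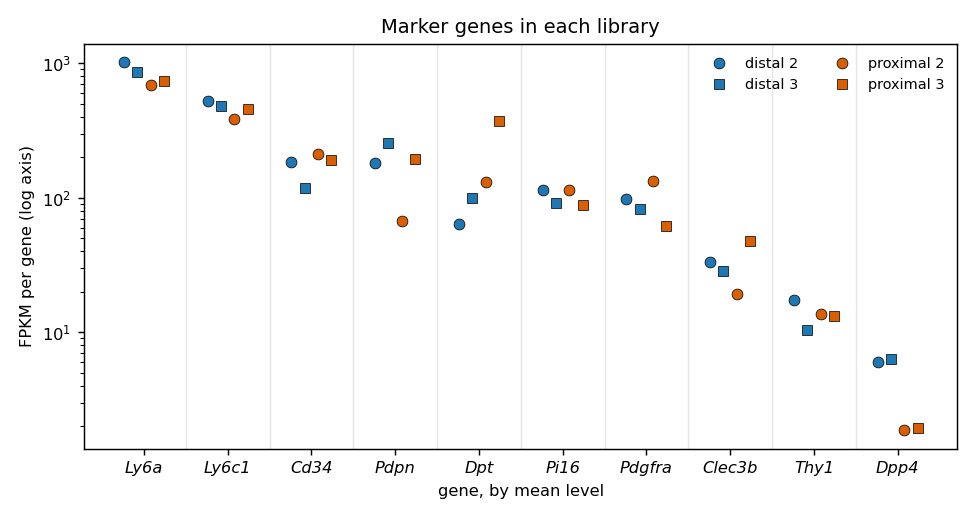
FPKM of each marker gene (log axis) in the 4 libraries, ordered by mean level, with distal libraries in blue, proximal in orange, number 2 as circles and number 3 as squares. Ly6a tops the order with 687 to 1016 FPKM and Dpp4 closes it with 1.86 to 6.32 FPKM. The proximal points of Dpp4 lie below and those of Dpt above the distal points.

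The markers differed widely in level. Over the 4 libraries Ly6a averaged 827 FPKM and Ly6c1 464 FPKM, and their ranges overlapped neither each other nor that of the next gene. Cd34 (176 FPKM), Pdpn (174 FPKM), Dpt (168 FPKM), Pi16 (102 FPKM) and Pdgfra (93.7 FPKM) followed, and each overlapped its neighbour in this order. Clec3b (32.1 FPKM), Thy1 (13.7 FPKM) and Dpp4 (4.04 FPKM) stood apart from their neighbours. Ly6a, whose product the cells were sorted on, was in the top 0.393% to 0.625% of tested genes by FPKM in every library. Dpp4, in contrast, ranked within the top 51.8% in distal 3 and only within the top 91.7% in proximal 2.

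Ly6a, the gene of the sorted antigen, had 1016 and 868 FPKM in distal stroma against 687 and 738 FPKM in proximal stroma. Both proximal libraries were below both distal libraries, by 1.48-fold within number 2 and by 1.18-fold within number 3. The log2 difference of proximal minus distal was -0.40 ± 0.32 (SE). All libraries were of cells sorted as positive for Sca-1. In bulk samples, an impure sort and less RNA per cell cannot be told apart, and neither was tested. Of its 6 annotated transcripts only 2, of 956 and 971 bases with the same ends, were above 0. The shorter held 83.0% to 87.9% of the summed FPKM, the largest share being that in proximal 3, although its level was highest in distal 2 (855 against 649 FPKM in proximal 3). The other 4 were listed at 0 in every library.

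Ly6c1, the gene of a Ly6C antigen found on endothelium and adventitial fibroblasts, had 527 and 482 FPKM in distal against 388 and 458 FPKM in proximal stroma. Its order between the regions was that of Ly6a with a smaller gap (log2 difference -0.26 ± 0.31, SE). Within each library Ly6c1 reached 51.9% (distal 2) to 62.0% (proximal 3) of the Ly6a level, so the 2 genes kept a similar ratio throughout. By the distance between log2 profiles centred on each gene's mean over the 4 libraries, Ly6c1 was the marker closest to Ly6a, at 0.18. Among 7388 tested genes with a mean of at least 5 FPKM, the 5 closest to Ly6a were Cdc42, Meg3, Pisd, Rad21 and Riok3, at distances of 0.062 to 0.101. For example, Cdc42, a small GTPase, had 291 and 264 FPKM in distal against 201 and 217 FPKM in proximal stroma. A likeness over 4 libraries is a description only.

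Ly6a and Ly6c1 lie in 1 gene cluster on chromosome 15 (mm10, Ly6a at 74994877 to 74998031 and Ly6c1 at 75044018 to 75048830, both on the minus strand, GENCODE M21), and their coding sequences resemble each other and that of Ly6c2. The first 90 coding bases of the transcripts that match the expressed ones are shown because this likeness affects how far fragments can be told apart. Capitals mark bases that differ from Ly6c1.
Ly6c1: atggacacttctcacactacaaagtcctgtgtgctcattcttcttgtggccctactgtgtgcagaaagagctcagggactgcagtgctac
Ly6c2: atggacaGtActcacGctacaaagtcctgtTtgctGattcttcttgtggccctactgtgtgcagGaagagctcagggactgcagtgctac
Ly6a: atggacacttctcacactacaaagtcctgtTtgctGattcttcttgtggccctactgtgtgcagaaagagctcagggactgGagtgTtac

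Over the whole coding sequence without the stop codon, Ly6c1 and Ly6c2 were identical at 384 of 393 aligned positions (97.7%), with 1 shared run of 188 bases, and 47.1% of all windows of 50 bases in Ly6c1 occurred unchanged in Ly6c2. Ly6a was identical to Ly6c1 at 81.8% of positions and shared none of its 353 windows of 50 bases with it, although their longest shared run, of 48 bases, was just short of such a window. With Ly6c2 it shared 3 windows, in a run of 52 bases. In the first 90 bases shown, Ly6a had 4 differences from Ly6c1 and Ly6c2 had 6. For fragments of the coding sequence, the division between Ly6c1 and Ly6c2 is therefore uncertain, and short ones could also be shared with Ly6a. The rest of the expressed transcripts, of 849 bases for Ly6c1 and 801 for Ly6c2 in full, was not compared. Ly6c2 had 40.04 and 34.99 FPKM in distal against 32.3 and 33.8 FPKM in proximal stroma, which was 7.25% to 8.34% of Ly6c1 in each library.

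The Ly6 cluster was mixed. Of 16 listed genes 7 were tested, Ly6a, Ly6c1 and Ly6c2 among them, 3 with higher proximal and 4 with higher distal mean log2 values, and 0 were called. Ly6f was listed at 0 in all 4 libraries. Ly6e, which is widely expressed and induced by interferon, had 266 and 246 FPKM in distal against 237 and 197 FPKM in proximal stroma. Ly6k stood at 7.87 and 6.95 FPKM against 10.3 and 14.6 FPKM, and Lynx1, a modulator of nicotinic receptors, at 11.1 and 5.94 FPKM against 15.9 and 7.98 FPKM. Psca, known from prostate epithelium, was listed at 0 in distal 2, at 0.0441 FPKM in distal 3, and it had 15.4 and 65.7 FPKM in the proximal libraries. Psca thus had the widest gap of the cluster, but it did not pass the test either (adjusted p = 0.494, limma).

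Pdgfra (chromosome 5, 75152292 to 75198215, plus strand), the receptor tyrosine kinase for PDGF ligands, had 97.9 and 82.6 FPKM in distal stroma against 133 and 61.7 FPKM in proximal stroma. Both the highest and the lowest value were proximal, and the log2 difference was 0.01 ± 0.45 (SE). The sign was opposite in the numbers, 0.43 within number 2 and -0.41 within number 3. All of its FPKM lay on 1 transcript of 6553 bases, and the other 5 annotated transcripts were listed at 0. Pdgfrb, the second PDGF receptor and a marker of pericytes as well as fibroblasts, had 33.9 and 36.6 FPKM in distal against 64.3 and 58.4 FPKM in proximal stroma. Within a library Pdgfra was 2.89-fold and 2.26-fold as high as Pdgfrb in distal 2 and distal 3, and 2.06-fold and 1.06-fold in proximal 2 and proximal 3. The ligand genes Pdgfa, Pdgfc and Pdgfd were all tested, and none was called.

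Cd34 (chromosome 1, 194938819 to 194961279, plus strand), a sialomucin of haematopoietic progenitors, endothelium and fibroblasts, had 183 and 119 FPKM in distal against 213 and 190 FPKM in proximal stroma. The proximal values were higher without overlap (log2 difference 0.45 ± 0.35, SE), yet distal 2 was closer to proximal 3 than to distal 3. Without distal replicate 3 the log2 difference was 0.14. Its 2 annotated transcripts share their ends and differ in length. The one of 2465 bases held 68.5%, 64.6%, 69.5% and 67.0% of the summed FPKM in distal 2, distal 3, proximal 2 and proximal 3, so the split moved by less than 5 percentage points.

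Endothelial cells also carry CD34, Ly6C and Sca-1, so their markers were read beside these genes. Of 10 endothelial markers, 4 stayed under 1 FPKM in every library, and the list summed to 14.1 to 19.8 FPKM in the distal and 12.7 to 20.5 FPKM in the proximal libraries. Plvap, the highest of the list, had 9.09 and 4.38 FPKM in distal against 10.58 and 2.997 FPKM in proximal stroma. Tek reached 3.12 FPKM at most, Cdh5 2.79 FPKM, Kdr 2.501 FPKM, Emcn 1.597 FPKM and Pecam1 1.56 FPKM. Vwf, among those under 1 FPKM, reached 0.280 FPKM. In each library the whole list summed to less than Cd34 alone, but a sum of FPKM does not measure a share of cells. The part of endothelial cells in the marker values was not tested.

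Pdpn (chromosome 4, 143267431 to 143299564, minus strand), a mucin-type protein that binds CLEC-2 on platelets and also marks lymphatic endothelium, had 181 and 254 FPKM in distal against 67.0 and 193 FPKM in proximal stroma. Proximal 2 was far below the other 3 libraries, and proximal 3 lay between the distal values. The log2 difference was -0.90 ± 0.57 (SE), and without proximal replicate 2 it was -0.15. The lymphatic markers Lyve1, Flt4, Mmrn1 and Ccl21a did not exceed 0.297 FPKM in any library, and Prox1 reached 2.07 FPKM. Msln, which marks mesothelium, another cell type with podoplanin, did not exceed 0.0187 FPKM. Of 6 mesothelial markers 4, Msln among them, stayed under 1 FPKM in every library. Wt1 of that list had 32.3 and 22.0 FPKM in distal against 20.9 and 16.7 FPKM in proximal stroma. Krt19, which epithelium shares, ran from 7.93 to 156 FPKM. The part of these cell types in the Pdpn values was not tested.

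Thy1 (chromosome 9, 44043384 to 44048579, plus strand), a small glycolipid-anchored protein of the immunoglobulin family found on T cells, neurons and many fibroblasts, had 17.5 and 10.5 FPKM in distal against 13.6 and 13.3 FPKM in proximal stroma. Both proximal values lay between the distal values (log2 difference -0.01 ± 0.41, SE). Cd3e, a T cell gene, was listed at 0 in all 4 libraries, and Ptprc, which all leukocytes share, did not exceed 0.120 FPKM.

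**Figure D2:**
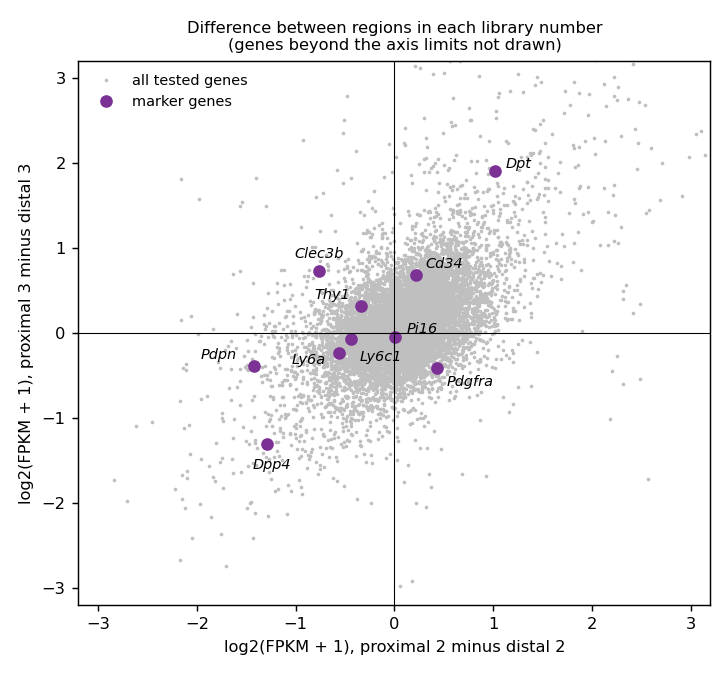
Difference in log2(FPKM + 1) between proximal and distal stroma within the libraries numbered 2 (x axis) and within those numbered 3 (y axis), with all tested genes in grey and the marker genes in purple. Dpp4 lies at -1.29 and -1.31 and Dpt at 1.02 and 1.90. Pdgfra, Thy1, Clec3b and Pi16 lie in quadrants of opposite sign.

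Pi16 (chromosome 17, 29317680 to 29330593, plus strand), a peptidase inhibitor whose transcript marks adventitial fibroblasts in many organs, had 113 and 91.5 FPKM in distal against 114 and 88.6 FPKM in proximal stroma. It varied least of the 10 markers, with 1.29-fold between its highest and lowest library, and number 2 was above number 3 in both regions. The log2 difference between the regions was -0.02 ± 0.32 (SE), and under median ratio scaling it was -0.14 without overlap. All of its FPKM lay on 1 of 3 annotated transcripts, of 2245 bases.

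Dpp4 (chromosome 2, 62330073 to 62412231, minus strand), the membrane peptidase CD26 that is often paired with Pi16 to mark progenitor-like fibroblasts, had 6.03 and 6.32 FPKM in distal against 1.86 and 1.95 FPKM in proximal stroma. The replicates of each region lay close together and the regions did not overlap, and the mean was 6.17 ± 0.204 FPKM (SD, n = 2) in distal stroma against 1.91 ± 0.0622 FPKM (SD, n = 2) in proximal stroma. The proximal values were 3.23-fold lower in FPKM within each number, with a log2 difference of -1.30 ± 0.40 (SE) on the log2(FPKM + 1) scale, which understates the change of low genes. With 1 library left out in turn, this difference stayed between -1.33 and -1.27. Dpp4 was the 1 marker under 0.05 before adjustment, and it did not pass after it (adjusted p = 0.99991, limma). Relative to Pi16 in the same library, Dpp4 stood at 5.31% and 6.90% in distal 2 and distal 3 and at 1.63% and 2.20% in proximal 2 and proximal 3, a comparison that no linear scaling between libraries can alter.

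Dpp4 was expressed from 2 of its 3 annotated transcripts, of 5268 and 2669 bases with a common start, and both had lower proximal values. The longer had 3.09 and 2.80 FPKM in distal against 0.924 and 0.963 FPKM in proximal stroma, and the shorter had 2.93 and 3.52 FPKM against 0.941 and 0.989 FPKM. The authors' bounds for the longer were 2.75 to 3.44 FPKM in distal 2 and 0.736 to 1.11 FPKM in proximal 2, so the bounds of the regions did not meet. These bounds cover estimation within a library only.

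**Figure D3:**
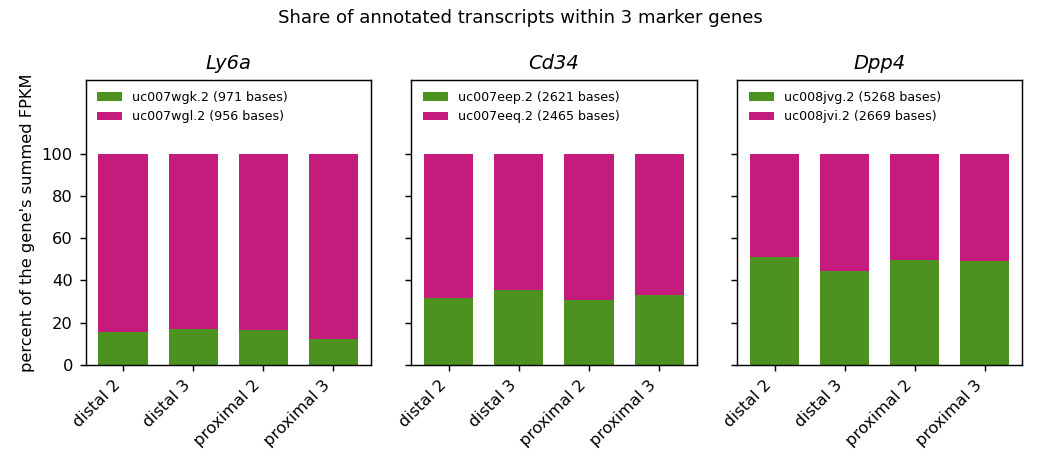
Percent of each gene's summed FPKM on its expressed annotated transcripts in the 4 libraries, for Ly6a, Cd34 and Dpp4. The split differed little between libraries: the shorter Cd34 transcript holds 64.6% to 69.5% and the longer Dpp4 transcript 44.3% to 51.3%.

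Dpt (chromosome 1, 164796644 to 164824266, plus strand) encodes dermatopontin, a small matrix protein that binds decorin and is used as a marker of fibroblasts across tissues. It had 64.4 and 99.9 FPKM in distal against 132 and 375 FPKM in proximal stroma. The proximal values were higher, 2.04-fold within number 2 and 3.76-fold within number 3, with a log2 difference of 1.46 ± 0.58 (SE). Number 3 was also above number 2 in both regions, and the spread within the proximal stroma exceeded the gap between distal 3 and proximal 2. Without proximal replicate 3 the log2 difference was 0.71, and without proximal replicate 2 it was 2.21. Relative to Dcn, which encodes its binding partner decorin, Dpt stood at 2.61% and 4.25% in the distal and at 4.58% and 10.2% in the proximal libraries.

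The library with the most Dpt, proximal 3, also had the most epithelial marker RNA. Of 10 epithelial markers 9 were tested, all 9 with higher proximal mean log2 values (8 under either other scaling; median 1.04, or -0.30 without proximal replicate 3), 0 passed, and the list summed to 49.8 and 119 FPKM in distal against 67.0 and 494 FPKM in proximal stroma. Krt19 was its highest gene, at 7.93, 15.2, 22.1 and 156 FPKM in that order. Cd24a, whose product was gated out, stood at 54.6 FPKM in proximal 3 and at no more than 19.1 FPKM elsewhere. Clec3b and the ratio of Ly6c1 to Ly6a were highest in that library too. The part of these cells in the marker values was not tested.

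Clec3b (chromosome 9, 123150946 to 123157432, plus strand), which encodes the plasminogen-binding protein tetranectin, had 33.1 and 28.5 FPKM in distal against 19.1 and 47.9 FPKM in proximal stroma. As for Pdgfra, the lowest and the highest value were both proximal, but in reverse order. The log2 difference was -0.02 ± 0.51 (SE), made up of -0.76 within number 2 and 0.73 within number 3. Plat and Plau, the plasminogen activators, were tested and not called, and Plau stood at 4.13 and 12.9 FPKM in distal and 0.933 and 4.68 FPKM in the proximal libraries.

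The 2 proximal values exceeded both distal values for 2 of the 10 markers (Cd34 and Dpt), as they did for 12.9% of all tested genes. They lay below for 3 of the 10 (Dpp4, Ly6a and Ly6c1), against 8.67% of all genes. The difference had the same sign in both numbers for 6 of the 10 markers, against 67.0% of all genes. The markers had a median log2 difference of -0.02, where all tested genes had 0.09. Their median was -0.25 without distal replicate 3, with 2 of 10 higher in proximal stroma, and 0.11 without distal replicate 2, with 6 of 10 higher. It was -0.14 without proximal replicate 2 and -0.19 without proximal replicate 3. Scaling matters for differences of this size. Quantile normalization moved the median of all genes from 0.09 to -0.03 and the share of genes with higher proximal values from 60.3% to 46.8%. Under both quantile normalization and median ratio scaling only Dpp4 and Ly6a still had both proximal libraries below both distal ones. Dpt overlapped under median ratio scaling, Cd34 under quantile normalization and Ly6c1 under both. Conversely, both proximal values came to lie below both distal values for Pdpn under quantile normalization and for Pi16 under median ratio scaling.

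The upstream sequences of the 2 markers with the widest differences, Dpp4 and Dpt, are shown for reference. Each is a window of 250 bases before the RefSeq start (GRCm38.p6), read 5′ to 3′ along the gene. Such windows were found for 7 of the 10 genes. They were searched on both strands for the TATA box TATAAA (held by 12.4% of all 32851 windows), the CCAAT box CCAAT (33.9%), the GC box GGGCGG (32.7%) and the STAT factor motif TTCNNNGAA (7.02%). Capitals mark matches. The Dpp4 window lies at chr2:62412232-62412481 on the minus strand and the Dpt window at chr1:164796413-164796662 on the plus strand. The Dpt window ends past the GENCODE gene start given above (164796644) and before the start of the expressed transcript (164796732).
Dpp4: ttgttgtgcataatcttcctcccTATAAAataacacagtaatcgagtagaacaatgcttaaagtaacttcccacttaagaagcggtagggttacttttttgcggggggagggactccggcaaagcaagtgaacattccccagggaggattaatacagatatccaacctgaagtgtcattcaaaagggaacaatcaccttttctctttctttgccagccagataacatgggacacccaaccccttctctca
Dpt: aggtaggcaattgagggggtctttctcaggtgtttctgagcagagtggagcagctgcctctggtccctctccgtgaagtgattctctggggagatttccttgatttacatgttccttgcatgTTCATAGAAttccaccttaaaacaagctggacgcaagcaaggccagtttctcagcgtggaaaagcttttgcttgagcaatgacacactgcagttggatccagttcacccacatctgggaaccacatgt

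The Dpp4 window held the TATA box with its first base at -227 and the Dpt window the STAT motif at -128. Positions count from -1 at the base before the RefSeq start. Both were poorer in G and C than the median window, at 43.6% and 48.8% against 52.4%. The GC box occurred in none of the 8 windows of these 7 genes, the CCAAT box in 1 window each of Ly6c1 and Pi16, and the TATA box also in 1 window of Ly6c1. A match is a description of letters and not a binding site.

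Other genes known from Pi16-positive adventitial fibroblasts leaned to higher distal values without a call. Of 18 tested, 13 had higher distal and 5 higher proximal mean log2 values, 0 passed, and the median log2 difference was -0.32 where all tested genes had 0.09. Without distal replicate 2 the split was 10 against 8 and the median -0.07. The split was also 10 against 8 without proximal replicate 3, with a median of -0.25. The widest differences were those of Procr, the protein C receptor, of fibronectin (Fn1) and of Emilin2. Fn1 had 13.8 and 28.2 FPKM in distal against 6.43 and 12.4 FPKM in proximal stroma, and Emilin2 had 11.8 and 11.6 FPKM against 4.09 and 7.92 FPKM. Procr ranged from 14.3 FPKM (proximal 2) to 278 FPKM (distal 3) and was higher in number 3 in both regions. By contrast, Igfbp6, Sema3c, Creb5 and Wnt2, tested genes of the same list, had higher proximal values in both numbers.

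Fibroblast genes outside that subset were split much as all tested genes were, of which 60.3% had higher proximal values, with a median of 0.09. Of 20 pan-fibroblast genes 12 had higher proximal and 8 higher distal mean log2 values, 0 passed, and the median was 0.14. The split was 10 against 10 under median ratio scaling (median 0.01) and without proximal replicate 2 (median 0.003). Without distal replicate 2 it was 16 against 4 (median 0.34), without proximal replicate 3 16 against 4 (median 0.33), and without distal replicate 3 11 against 9 (median 0.05). Mfap4, a microfibril protein, had 86.1 and 65.9 FPKM in distal against 229 and 352 FPKM in proximal stroma, the widest gap of the list, and Fbln1 had 94.4 and 92.8 FPKM against 172 and 204 FPKM. Of 14 genes known from Col15a1-positive or committed fibroblasts, 8 had higher proximal and 6 higher distal values, and 0 passed. Their median was 0.09, the same as that of all tested genes. The split was 7 against 7 under both other scalings and with any 1 library left out, with medians from 0.003 to 0.08. They held both the chemokine Cxcl12, a substrate of Dpp4, with 118 and 70.5 FPKM in distal against 577 and 748 FPKM in proximal stroma, and proenkephalin (Penk), at 3310 and 4830 FPKM against 990.1 and 2346 FPKM. Fabp4, a lipid carrier, stood at 0.220 and 2.21 FPKM against 4.98 and 15.01 FPKM.

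**Figure D4:**
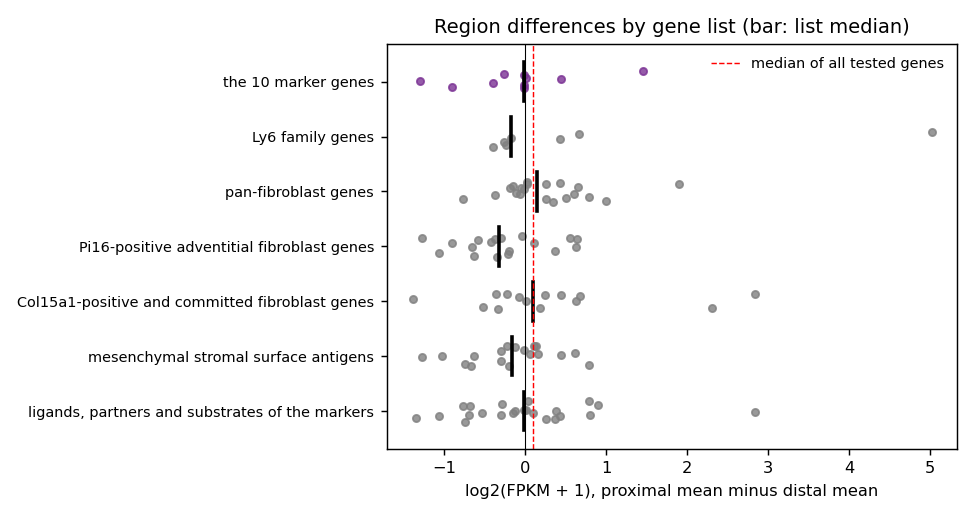
Log2 difference of proximal minus distal means for the tested genes of each list (points) with the list median (black bar), the median of all tested genes (red dashed line) and the 10 marker genes in purple. The Pi16-positive fibroblast list has its median at -0.32 and the pan-fibroblast list at 0.14, and each of the 7 lists drawn has points on both sides of 0.

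Antigens used elsewhere to sort mesenchymal stromal cells were mixed as well. Of 18 tested, 7 had higher proximal and 11 higher distal mean log2 values, 0 passed, and the median of -0.16 became 0.11 without proximal replicate 2. Cspg4, known as NG2 and a pericyte antigen, had 15.1 and 17.6 FPKM in distal against 7.25 and 7.73 FPKM in proximal stroma, without overlap. Both proximal values were below both distal values for 3 of the 18 (Cspg4, Cd55 and Itgb1), against 8.67% of all tested genes, and above them for 1 (Pdgfrb), against 12.9%. Among 23 tested ligands, partners and substrates of the markers, 11 had higher proximal and 12 higher distal values, 0 passed, and the median was -0.01, or 0.09 without proximal replicate 2 and -0.23 without proximal replicate 3. Cd44, a membrane partner of podoplanin, had 31.5 and 62.6 FPKM in distal against 14.8 and 85.7 FPKM in proximal stroma, highest and lowest in proximal stroma as Clec3b was.

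**Figure D5:**
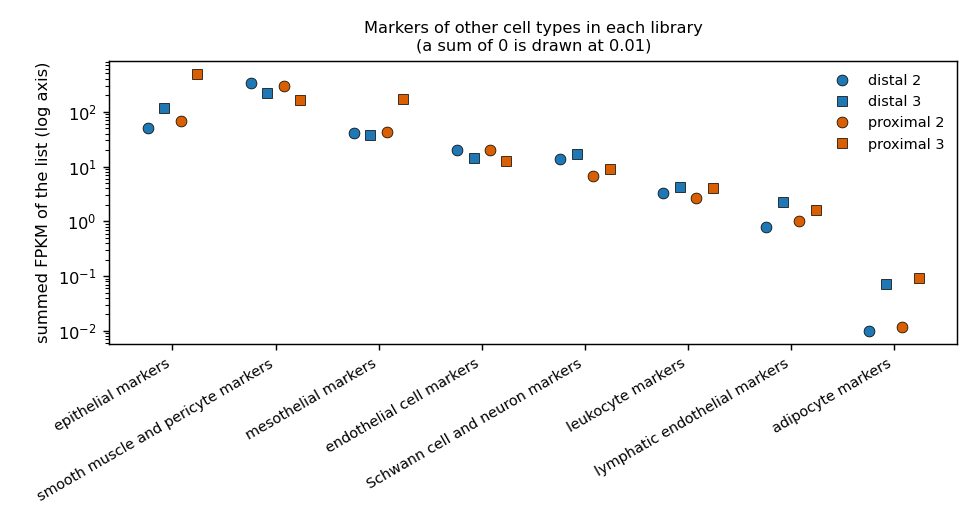
Summed FPKM of marker lists of other cell types (log axis) in the 4 libraries, with distal in blue, proximal in orange, number 2 as circles and number 3 as squares. The epithelial sum reaches 494 FPKM in proximal 3 against 49.8 to 119 FPKM elsewhere, and the leukocyte sum stays between 2.64 and 4.199 FPKM.

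Among the lists of other cell types, the smooth muscle and pericyte markers had desmin (Des) highest. They summed to 335 and 223 FPKM in the distal and to 291 and 166 FPKM in the proximal libraries. Leukocyte markers summed to 2.64 to 4.199 FPKM with 9 of 11 under 1 FPKM in every library. Their highest gene, Cd68, reached 1.87 FPKM at most. Schwann cell and neuron markers summed to 6.69 to 17.0 FPKM with 6 of 8 under 1 FPKM. Uchl1, the highest of these, had 8.64 and 13.4 FPKM in distal against 3.47 and 6.17 FPKM in proximal stroma. Prph had 4.56 and 3.11 FPKM against 2.16 and 1.83 FPKM. The mesothelial list summed to 37.2 to 43.4 FPKM and to 172 FPKM in proximal 3, where Krt19, which epithelium shares, made up most of it, and Lrrn4 was listed at 0 throughout. Adipocyte markers, with Plin1 highest and Retn listed at 0 throughout, did not exceed a sum of 0.091 FPKM. Lymphatic markers summed to 0.777 to 2.30 FPKM.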

How the data were processed

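RNA of 4 sorted stromal samples, 2 per region, was made into cDNA with a SMART-Seq v4 kit and sequenced on an Illumina HiSeq, per the labels' protocols. Libraries of this kind do not mark strand. The tools named are Cufflinks 0.0.6, TopHat2 0.6 and bcl2fastq 1.8.3, and the build mm10, per the submitters' processing notes. The deposited values are FPKM per transcript with bounds, and a coverage signal, per the file headers. Each table lists 63241 transcripts without symbols. Cufflinks divides fragments among overlapping transcripts, so 0 in a table does not show that a gene was off.

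Gene names came from position, with GENCODE M21 (same assembly) as annotation: span overlap times length similarity of at least 0.8, or both ends within 100 bases of exons of 1 gene, or a similarity of at least 0.5 to 1 gene. This named 86.7% of transcripts, and FPKM was summed per gene. Genes with a failed or capped estimate were left out (7 at the same minimum). Values were tested as log2(FPKM + 1) with limma 3.58.1 in R 4.3.3 (mean trend, two-sided, Benjamini-Hochberg adjustment over 11205 genes, threshold 0.05), and the fit was tested on simulated data. Python 3.11.15 and biopython 1.88 did the rest.

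The 10 genes and the lists were chosen with earlier results of these data known. Named are the 10 markers, tested Ly6 genes, the widest 3 differences of each list, the highest gene of each other cell type list and those at 0, and the 5 genes most like Ly6a. Further list genes were chosen after their values were seen. Alternatives were a pseudocount of 0.1, no filter, 2 scalings, the library number as a block, each library left out and only transcripts matched by span and length.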

Additional observations from a re-analysis of the deposited data

How the results depend on the processing

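The 0 calls over all genes became 451 with the replicate block (304 higher proximal, 147 higher distal, 2.71% and 1.31% of genes), Dpp4 (adjusted p = 0.0172) and Dpt (adjusted p = 0.0303, both limma) among them. The block changed no other marker's call. No label says what a number marks, so whether the libraries are paired by design is unknown. Across genes, the differences between numbers in the 2 regions had r = 0.815. With 1 library left out, in fits that assume the lone library varies like the other group, the calls ranged from 0 to 40 (0 to 36 higher proximal, 0 to 5 higher distal), with 40 calls without distal replicate 2 and 26 without distal replicate 3. Quantile normalization gave 1481 genes with both proximal libraries below both distal ones, against 971.

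Of the 10 markers, 6 kept the sign of their difference under every alternative run. Pdgfra was at -0.115 under median ratio scaling, against 0.01. With 1 library left out, the differences ranged from -0.54 to 0.55 for Pdgfra, from -0.35 to 0.33 for Thy1, from -0.20 to 0.16 for Pi16 and from -0.66 to 0.62 for Clec3b, and the cause was not tested. Pi16 has no value from transcripts matched by span and length, since its expressed transcript was named by its ends. The authors' bounds for the expressed marker transcripts and Ly6c2 had half-widths of 1.62% to 32.0% of the value (median 5.59%), which limits Dpp4 most.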

Other observations

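Some surface antigens differed more between library numbers than between regions (chosen after their values were seen). This is not particular to them. Across all tested genes, libraries of the same number were more alike (r = 0.952) than those of the same region (0.911 and 0.869). Itgb5, an integrin subunit, had 38.3 FPKM (distal) and 42.0 FPKM (proximal) in the libraries numbered 2 against 4.30 FPKM and 3.93 FPKM in those numbered 3. Vcam1, an adhesion molecule of activated stroma, went the other way, with 59.1 and 76.7 FPKM in the libraries numbered 2 and 244 and 348 FPKM in those numbered 3. Itga5, the fibronectin receptor subunit, stood at 160 and 65.2 FPKM against 387 and 373 FPKM, and Cd248, endosialin, at 270 and 224 FPKM against 87.2 and 79.5 FPKM. Among the 10 markers the widest such differences within a region were those of Dpt and Pdpn in proximal stroma, 1.51 on the log2 scale for both.

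Wt1, listed as a mesothelial marker, had 32.3 and 22.0 FPKM in distal against 20.9 and 16.7 FPKM in proximal stroma, while Msln did not exceed 0.0187 FPKM, Bnc1 0.0542 FPKM and Upk3b 0.395 FPKM.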
